A study of Rattus norvegicus with 15 samples.

Results

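Heat shock proteins and the genes of the unfolded protein response were followed in mammary tumours of rats fed different amounts of zinc early in life. The set was a list of 44 genes for chaperones, their regulators and sensors of protein folding in the endoplasmic reticulum (ER). A gene counted as measured where a probe whose accession maps to its rat symbol stood well above background on 5 or more of 15 arrays. Of the 44 genes 38 were measured, 21 of them cytosolic, mitochondrial or nuclear (hereafter the cytosolic arm) and 17 of the ER, out of 8382 named genes measured on the array. No probe was matched to Hspa1b, Dnajb1, Ern1, Xbp1 or Trib3, and the probe of Eif2ak3, an ER stress kinase, was above background on 3 arrays, so these 6 genes were not analysed here.

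The tumours came from female Sprague-Dawley rats, an outbred strain, and 5 tumours were measured for each of 3 diets. Deficient tumours came from the offspring of dams on chow with 3 mg zinc per kg, control tumours from 35 mg/kg, the adequate level, and supplemented tumours from 180 mg/kg. The chows were given from gestation day 10, over weaning on day 21, to day 51, with 16 dams per diet. At day 51 every daughter in all groups received 50 mg/kg DMBA, a carcinogen that induces mammary tumours, and returned to adequate chow, and tumours were taken at day 180. Per the labels' protocols, RNA came from tumours of tubular or papillary type. The labels do not say whether tumours came from separate animals or litters, so p-values reflect only how far these tumours differ.

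Chaperones bind unfolded stretches of proteins and let them fold. In the cytosol Hsp70 proteins work with J-domain partners of the Hsp40 family and pass clients to Hsp90, and the transcription factor Hsf1 raises their genes when unfolded proteins build up. In the ER the Hsp70 protein Hspa5 (BiP) holds the sensors Ern1 (IRE1), Eif2ak3 (PERK) and Atf6 inactive. When it is drawn away, they raise ER chaperones, disulfide isomerases and the factors Atf4, Atf3 and Ddit3, the unfolded protein response. Secretory epithelium such as that of the mammary gland is known for high levels of ER chaperones.

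Promoter windows were searched for exact textbook forms of the elements of each response. RefSeq windows on assembly GRCr8, from 250 bases before to 50 after each gene's start, were held for 30 of the 38 measured members, and both strands were searched. The heat shock element, searched as GAA, TTC and GAA in that order with 2 bases between neighbours, lay in 6 of 17 cytosolic members with a window (Chordc1, Dnaja1, Hspa8, Hspd1, Hspe1 and Hsph1) and in 0 of 13 ER members, against 0.798% of all 33469 windows. The ER stress response element, searched as CCAAT and CCACG with 9 bases between them, lay in 5 of the 13 ER members (Calr, Canx, Dnajc3, Hsp90b1 and Hspa5) and in 0 of the 17 cytosolic ones, against 0.0657% of all windows. Its second form, ATTGG and CCACG with 1 base between them, lay in 3 ER members (Dnajb11, Herpud1 and Hyou1) and 0 cytosolic ones, against 0.0508% of windows. No element overlapped an element of another kind in the windows printed. A match is a description of letters and does not show binding. A member without a match may hold a variant form or an element outside the window, which this search does not find.

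The windows of the 4 cytosolic members with an unadjusted p under 0.05 in limma for supplemented minus control (higher in supplemented tumours), of Hspe1, which shares 211 bases of window with its divergent neighbour Hspd1, and of the ER chaperones Hspa5 and Hsp90b1 are printed 5′ to 3′ on the gene's strand, with matches to an element in capitals and each gene's start after base 250.
Dnaja1 (chr5:60638154-60638453, plus strand): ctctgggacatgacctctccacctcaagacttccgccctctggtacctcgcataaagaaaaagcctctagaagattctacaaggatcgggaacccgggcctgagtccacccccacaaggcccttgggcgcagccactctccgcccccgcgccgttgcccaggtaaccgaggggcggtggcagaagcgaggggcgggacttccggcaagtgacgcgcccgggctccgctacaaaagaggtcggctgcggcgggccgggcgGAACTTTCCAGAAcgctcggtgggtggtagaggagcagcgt
Chordc1 (chr8:23650571-23650870, plus strand): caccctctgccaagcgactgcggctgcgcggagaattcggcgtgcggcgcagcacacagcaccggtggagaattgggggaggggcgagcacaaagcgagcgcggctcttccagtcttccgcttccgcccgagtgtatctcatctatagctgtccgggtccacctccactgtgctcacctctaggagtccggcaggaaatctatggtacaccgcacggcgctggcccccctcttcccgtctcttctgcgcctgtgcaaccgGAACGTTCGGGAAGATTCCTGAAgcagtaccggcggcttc
Hsph1 (chr12:10427118-10427417, plus strand): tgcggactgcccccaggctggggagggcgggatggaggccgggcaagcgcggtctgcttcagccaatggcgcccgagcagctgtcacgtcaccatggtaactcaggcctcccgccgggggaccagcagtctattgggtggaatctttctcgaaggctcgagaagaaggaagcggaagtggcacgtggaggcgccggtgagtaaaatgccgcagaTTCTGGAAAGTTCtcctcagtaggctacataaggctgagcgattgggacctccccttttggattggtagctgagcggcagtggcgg
Hspa8 (chr8:50080264-50080563, plus strand): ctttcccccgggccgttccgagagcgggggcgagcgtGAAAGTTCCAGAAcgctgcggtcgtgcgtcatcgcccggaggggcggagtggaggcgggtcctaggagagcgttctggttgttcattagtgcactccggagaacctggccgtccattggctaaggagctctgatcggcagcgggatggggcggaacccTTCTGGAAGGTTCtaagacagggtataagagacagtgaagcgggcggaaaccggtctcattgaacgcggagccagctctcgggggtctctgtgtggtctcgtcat
Hspe1 (chr9:64084077-64084376, plus strand): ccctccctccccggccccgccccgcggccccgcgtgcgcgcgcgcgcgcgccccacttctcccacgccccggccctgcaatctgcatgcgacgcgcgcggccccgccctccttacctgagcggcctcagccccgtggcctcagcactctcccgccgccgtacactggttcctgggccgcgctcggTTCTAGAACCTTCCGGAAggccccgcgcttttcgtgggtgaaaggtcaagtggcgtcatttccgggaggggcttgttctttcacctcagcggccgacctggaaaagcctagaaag
Hspa5 (chr3:38452766-38453065, plus strand): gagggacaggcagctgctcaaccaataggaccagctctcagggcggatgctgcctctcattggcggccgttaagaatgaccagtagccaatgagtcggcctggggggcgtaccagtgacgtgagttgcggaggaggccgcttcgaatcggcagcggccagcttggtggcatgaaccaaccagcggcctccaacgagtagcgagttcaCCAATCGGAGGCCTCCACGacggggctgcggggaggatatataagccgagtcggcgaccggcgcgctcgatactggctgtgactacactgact
Hsp90b1 (chr7:23012244-23012543, minus strand): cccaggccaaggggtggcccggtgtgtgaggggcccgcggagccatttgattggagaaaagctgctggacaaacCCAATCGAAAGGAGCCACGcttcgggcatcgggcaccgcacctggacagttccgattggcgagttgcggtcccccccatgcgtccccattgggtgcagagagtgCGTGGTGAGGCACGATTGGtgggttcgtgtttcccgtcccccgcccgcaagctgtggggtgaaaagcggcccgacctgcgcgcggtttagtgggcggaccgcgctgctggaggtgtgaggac
In Dnaja1 and Chordc1 the capitals lay after the start, from base 10 and base 11 of the transcript, and in Chordc1 3 overlapping matches formed 1 block. In Hsph1 the element began 36 bases before the start, and Hspa8 held 2, from 213 and 55 bases before it. The ER stress response element began 43 bases before the start of Hspa5 and 176 and 72 bases before that of Hsp90b1.

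Levels are log2 processed signals relative to each array's 75th percentile, so a difference of 1 is a doubling, and levels of different probes are not compared. Arrays differed in brightness, their 75th percentiles running from 50.7 to 177, and the lowest 3 were deficient tumours 1 and 4 and control tumour 2. Each of the 4 slides held all 3 diets. Luminal epithelial markers (Krt8, Krt18, Epcam and others, 8 of 8 listed) were above background on all arrays. In whole tumours a different share of a cell type and a different amount of RNA per cell cannot be told apart.

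Across the 38 members the supplemented tumours stood slightly above both other diets in both arms. In supplemented tumours 17 of 21 cytosolic members had a higher mean than in control tumours, with a median log2 difference of 0.21, and 13 of 17 ER members did, with a median of 0.16. Over all 21015 tested probes 48.8% were higher and the median was -0.01. Against deficient tumours, 16 of 21 cytosolic members (median 0.26) and 11 of 17 ER members (median 0.18) were higher in supplemented tumours, beside 49.9% of all probes and a median of -0.001. On this scale 4287 tested probes had a mean level above 2, and 23 members lie among them. The median difference of these bright probes was 0.02 for supplemented minus control and 0.04 for supplemented minus deficient. Of these bright probes 54.7% and 56.8% were higher, a larger share than among all probes. The part of probe brightness in the member medians was not tested.

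No single member passed the test. Limma with Benjamini-Hochberg adjustment over all tested probes called 0 of 21015 probes (0%) in each comparison of diets and in the F test over the 3 diets, and the lowest adjusted p of any member was 0.661, for supplemented minus deficient, beside 0.987 and 1.000 for deficient and supplemented tumours against control. At an unadjusted p under 0.05 limma marked 5 members for supplemented minus control, all higher, against 1.97% of all probes, of which 0.828% were higher and 1.15% lower. For supplemented minus deficient it marked 13 members, 9 higher and 4 lower, against 7.05% of all probes (3.31% higher and 3.74% lower). In the F test limma marked 9 members at an unadjusted p under 0.05, against 4.03% of all probes. The median half-width of a member's 95% interval was 0.48 on the log2 scale, a factor of 1.39.

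**Figure D1:**
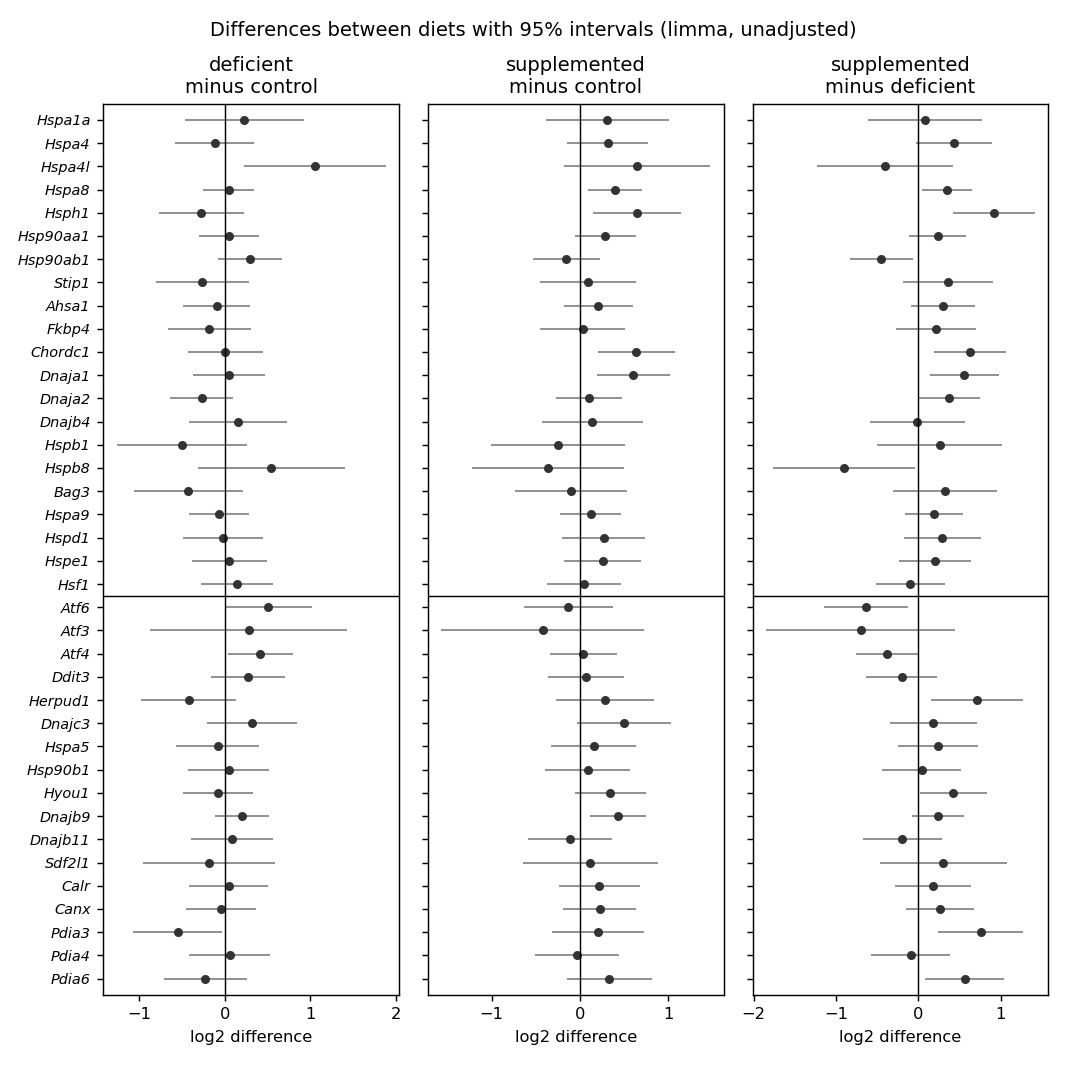
Log2 differences between diets for the 38 measured genes (points) with unadjusted 95% intervals from limma (lines), cytosolic arm above the horizontal line and ER arm below. Most points lie right of 0 for supplemented minus control (30 of 38) and supplemented minus deficient (27 of 38), a direction that turns with normexp background correction, and 21 of 38 do for deficient minus control.

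The direction of the list medians depended on 1 background method and their size on a few tumours. With normexp background correction in place of the processed signal, the medians for supplemented minus control were -0.23 (cytosolic) and -0.41 (ER), and those for supplemented minus deficient -0.17 and -0.18. On that scale the probes with a mean level above 2 lay a median of 1.37 below their own mean in supplemented tumour 4 (-1.37), beside 0.09 with the processed signal. Their median deviation ran from -0.43 to 0.40 in the other supplemented tumours, -0.38 to 0.50 in control and -0.29 to 0.48 in deficient tumours. Normexp thus moved bright probes as a class, and whether the members moved beyond that class was not tested. Normexp followed by quantile normalization, chosen after the values were seen, gave 0.13 (cytosolic) and 0.12 (ER) for supplemented minus control. Without supplemented tumour 4 the medians for supplemented minus control were 0.12 and 0.03, and those for supplemented minus deficient 0.14 and 0.10. Without control tumour 2, one of the dim arrays, those for supplemented minus control were 0.13 and 0.07.

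Between deficient and control tumours the list medians were near 0. In deficient tumours 11 of 21 cytosolic members had a higher mean than in control tumours (median 0.01), and 10 of 17 ER members did (median 0.05), beside 49.3% of all probes. At an unadjusted p under 0.05 limma marked 4 members, 3 higher (Hspa4l, Atf4 and Atf6) and 1 lower (Pdia3), against 3.91% of all probes (1.87% higher and 2.05% lower).

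**Figure D2:**
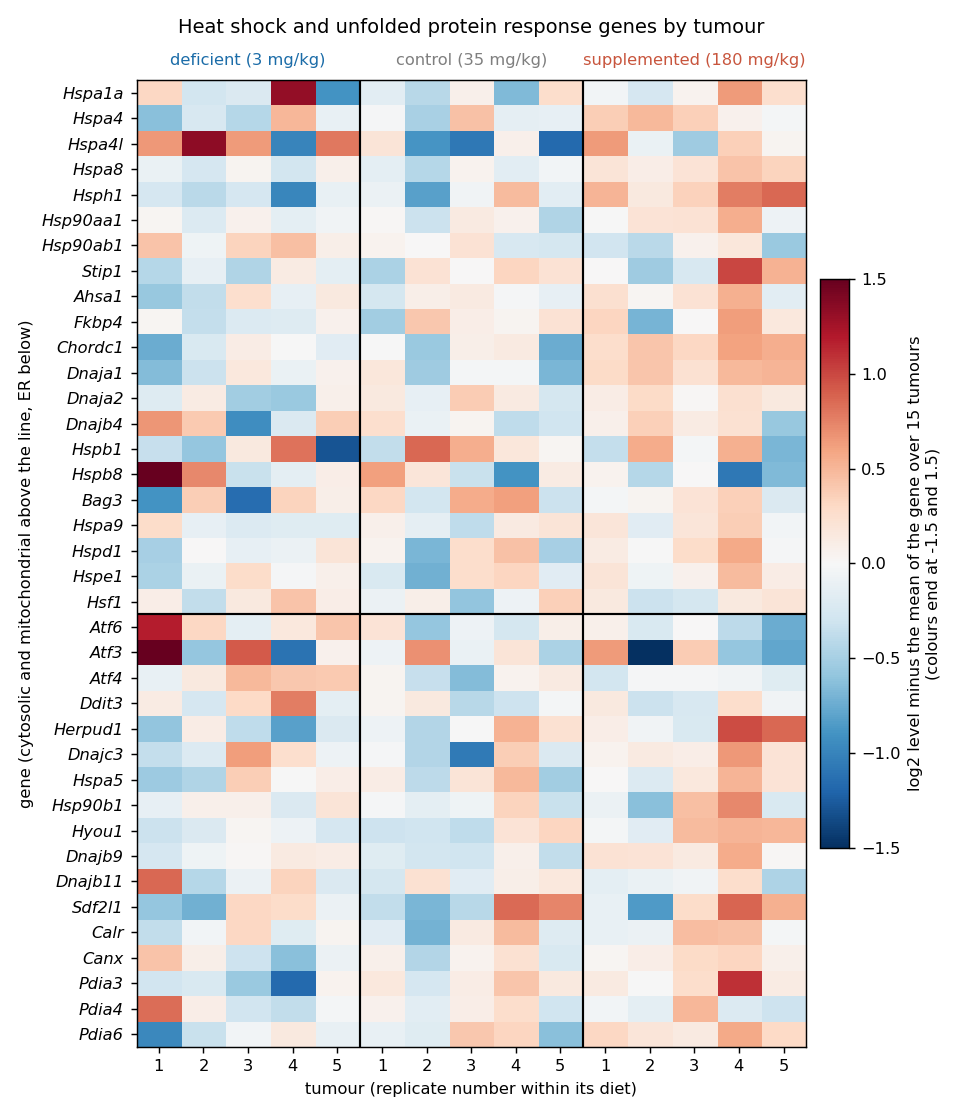
Log2 level of each gene (rows) in each tumour (columns, grouped by diet from 3 to 180 mg zinc per kg) minus the mean of the gene over the 15 tumours, red above and blue below the mean. The column of supplemented tumour 4 is red for most genes in both arms, with 20 of 21 cytosolic members above their mean.

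The Hsp70 family had the highest median of the role groups for supplemented minus control, 0.40, close to the 0.39 of Herpud1 and Dnajc3. The order of these 2 groups turned in the authors' deposited log2 values (0.28 and 0.33) and with normexp followed by quantile normalization (0.30 and 0.31). All 5 measured Hsp70 members had higher means in supplemented than in control tumours (3 of 5 with normexp), by 0.31 to 0.65, and 4 of 5 were higher than in deficient tumours. Hspa8 levels were 6.26, 6.10, 6.39, 6.07 and 6.42 in the deficient group, 6.20, 5.92, 6.40, 6.19 and 6.31 in the control group, and 6.54, 6.45, 6.55, 6.78 and 6.69 in the supplemented group. Hspa8, the constitutive Hsp70 of the cytosol, was higher in each supplemented tumour than in any tumour of the other diets. The difference was 0.40 (95% interval 0.10 to 0.70) for supplemented minus control and 0.35 (95% interval 0.05 to 0.66) for supplemented minus deficient, with limma's adjusted p of 1.000 and 0.701. Groups as fully separated as this, with the supplemented one higher, occurred for 0.209% of all probes against control and 0.857% against deficient. The other 3 Hspa8 probes gave the same direction, the 4 together ranging over 0.40 to 0.45 and 0.35 to 0.62. Normexp turned both differences, to -0.22 and -0.27.

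Hsph1 (Hsp110), which exchanges the nucleotide of Hsp70 and so resets it, had the largest positive difference of any member for supplemented minus deficient. Hsph1 stood at -0.86, -1.01, -0.86, -1.58 and -0.71 in deficient tumours, -0.69, -1.42, -0.66, -0.13 and -0.77 in control tumours, and -0.10, -0.46, -0.26, 0.16 and 0.26 in supplemented tumours. Each supplemented tumour was above each deficient one, while control tumour 4 lay within the supplemented range. The supplemented mean was 1.89-fold the deficient mean, a log2 difference of 0.92 (95% interval 0.43 to 1.42) with limma's unadjusted p of 0.00116 and adjusted p of 0.661. Against control it was 0.65 (95% interval 0.16 to 1.15). Leaving out single tumours moved these differences over 0.78 to 1.02 and 0.48 to 0.80, and neither turned under normexp (0.42 and 0.33). The authors' deposited log2 values gave 0.47 and 0.35. The probe was above background in 4 deficient, 4 control and 5 supplemented tumours.

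Hspa4, a relative of Hsph1, differed by 0.32 for supplemented minus control, but its dimmer probe gave the opposite sign, the pair spanning -0.13 to 0.32. Hspa4l, another Hsp110-type gene, was dim. Hspa4l stood at -1.70, -1.02, -1.71, -3.35 and -1.56 in deficient tumours, -2.16, -3.24, -3.43, -2.28 and -3.52 in control tumours, and -1.71, -2.45, -2.88, -2.00 and -2.32 in supplemented tumours. The groups overlapped, and the probe was above background in 3 deficient, 2 control and 3 supplemented tumours. Its deficient minus control difference of 1.06 (95% interval 0.23 to 1.89) was the largest of any member in that comparison, with limma's unadjusted p of 0.0157 and adjusted p of 0.987. In the authors' deposited values it was 0.25.

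Hspa1a is the stress-inducible Hsp70, and its near-identical copy Hspa1b may share its probe. Hspa1a stood at -0.85, -1.43, -1.38, 0.16 and -2.06 in deficient tumours, -1.32, -1.57, -1.09, -1.82 and -0.90 in control tumours, and -1.20, -1.41, -1.11, -0.52 and -0.91 in supplemented tumours. Deficient tumour 4 held the highest and deficient tumour 5 the lowest level of all 15, so the deficient group spanned the whole range and overlapped both others. Against control the deficient mean differed by 0.23 (95% interval -0.46 to 0.93) and the supplemented mean by 0.31 (95% interval -0.38 to 1.01).

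**Figure D3:**
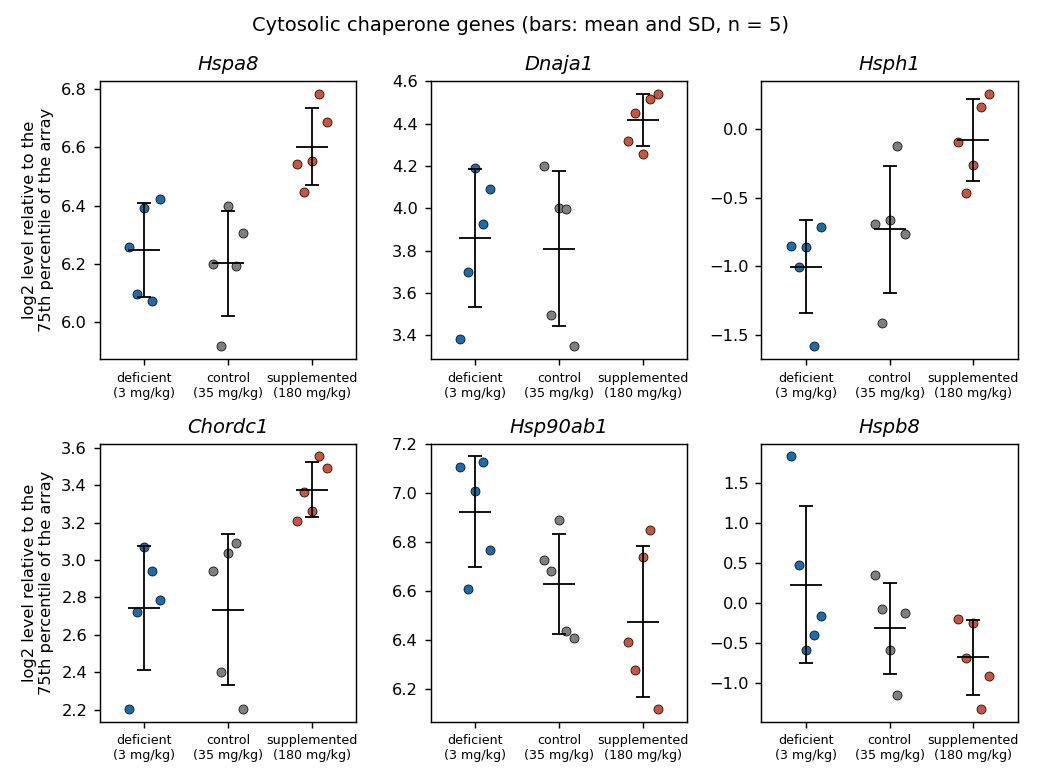
Log2 level, relative to each array's 75th percentile, for 6 cytosolic genes, 1 point per tumour, diets from 3 to 180 mg zinc per kg, bars showing mean and SD (n = 5). For Hspa8, Dnaja1 and Chordc1 the 5 supplemented tumours lie above the tumours of both other diets, an order that normexp background correction turns for supplemented minus control, and for Hsph1 they lie above the deficient tumours.

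Among Hsp90 and its cochaperones, the chosen probes of the 2 cytosolic Hsp90 genes went different ways on the reported scale. Hsp90aa1, the stress-inducible form, had levels of 6.53, 6.31, 6.57, 6.37 and 6.46 in deficient tumours, 6.52, 6.19, 6.64, 6.58 and 6.06 in control tumours, and 6.50, 6.71, 6.72, 7.06 and 6.43 in supplemented tumours. The groups overlapped, with differences of 0.29 (95% interval -0.06 to 0.64) for supplemented minus control and 0.24 (95% interval -0.11 to 0.58) for supplemented minus deficient, both negative with normexp (-0.46 and -0.41). Hsp90ab1, the constitutive form, ran the other way on the reported scale. Hsp90ab1 stood at 7.11, 6.61, 7.01, 7.13 and 6.77 in deficient tumours, 6.73, 6.68, 6.89, 6.44 and 6.41 in control tumours, and 6.39, 6.28, 6.74, 6.85 and 6.12 in supplemented tumours. Supplemented tumours 1, 2 and 5 were below all deficient tumours, and supplemented tumours 3 and 4 were among them. The difference was -0.45 (95% interval -0.83 to -0.07) for supplemented minus deficient and 0.29 (95% interval -0.08 to 0.67) for deficient minus control, with limma's adjusted p of 0.701 and 0.987. For supplemented minus control it was -0.15 (95% interval -0.53 to 0.22). The 3 probes of Hsp90ab1 disagreed, spanning -0.45 to 0.05 for supplemented minus deficient and -0.21 to 0.11 for supplemented minus control. With normexp the supplemented minus deficient difference was -1.08, below 0 as for Hsp90aa1.

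Chordc1, a zinc-binding cochaperone with CHORD domains that binds Hsp90, had a difference from control close to that of Hsph1. Chordc1 stood at 2.21, 2.72, 3.07, 2.94 and 2.79 in deficient tumours, 2.94, 2.40, 3.04, 3.09 and 2.20 in control tumours, and 3.21, 3.36, 3.26, 3.55 and 3.49 in supplemented tumours. All supplemented tumours lay above all tumours of the other diets, and deficient tumour 1 and control tumours 2 and 5 were lowest. The supplemented mean was 1.56-fold the control mean, a log2 difference of 0.64 (95% interval 0.20 to 1.08), and the difference from deficient tumours was 0.63 (95% interval 0.19 to 1.07), with limma's adjusted p of 1.000 and 0.661. Its second probe gave smaller values of the same sign, 0.28 and 0.49. With normexp the differences were -0.024 and 0.17. Stip1 (Hop), which joins Hsp70 to Hsp90, Ahsa1, which activates the Hsp90 ATPase, and Fkbp4, an immunophilin of steroid receptor complexes, differed by 0.09, 0.21 and 0.03 for supplemented minus control. For supplemented minus deficient they stood at 0.36, 0.30 and 0.21, and with normexp each was below 0 in both comparisons.

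Of the J-domain proteins that stimulate Hsp70, Dnaja1 stood apart in supplemented tumours, while its deficient and control groups overlapped. Dnaja1 stood at 3.38, 3.70, 4.19, 3.93 and 4.09 in deficient tumours, 4.20, 3.50, 4.00, 4.00 and 3.35 in control tumours, and 4.32, 4.45, 4.26, 4.52 and 4.54 in supplemented tumours. The lowest supplemented tumour was above the highest tumour of either other diet. The difference was 0.61 (95% interval 0.19 to 1.02) for supplemented minus control and 0.56 (95% interval 0.14 to 0.97) for supplemented minus deficient, with limma's adjusted p of 1.000 and 0.666, and normexp gave -0.077 and 0.034. Dnaja2, its close relative, was much less separated. Dnaja2 levels were -0.12, 0.19, -0.46, -0.48 and 0.14 in the deficient group, 0.22, -0.06, 0.45, 0.20 and -0.19 in the control group, and 0.17, 0.35, 0.08, 0.31 and 0.21 in the supplemented group. The groups overlapped, with a difference of -0.27 (95% interval -0.64 to 0.10) for deficient minus control and 0.37 (95% interval 0.00 to 0.74) for supplemented minus deficient. Dnajb4 differed by 0.14 for supplemented minus control and -0.01 for supplemented minus deficient.

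The small heat shock proteins and their partner were not higher in supplemented than in control tumours. Hspb1 (Hsp27) and Hspb8 hold unfolded proteins without using ATP, and Bag3 links Hspb8 to Hsp70 and to autophagy. All 3 had lower means in supplemented than in control tumours on the reported scale, by -0.10 to -0.36, and under the 5 other scalings tried, none with an unadjusted p under 0.05. Hspb8 stood at 1.84, 0.47, -0.59, -0.40 and -0.16 in deficient tumours, 0.36, -0.08, -0.59, -1.15 and -0.13 in control tumours, and -0.20, -0.68, -0.25, -1.33 and -0.91 in supplemented tumours. The highest level was that of deficient tumour 1 and the lowest that of supplemented tumour 4, and the groups overlapped. The difference was -0.91 (95% interval -1.77 to -0.04) for supplemented minus deficient, with limma's adjusted p of 0.703, and leaving out single tumours moved it over -1.11 to -0.51, the smallest size being that without deficient tumour 1. Bag3 levels were 2.82, 4.09, 2.59, 4.06 and 3.82 in the deficient group, 4.04, 3.44, 4.28, 4.34 and 3.40 in the control group, and 3.70, 3.77, 3.93, 4.08 and 3.51 in the supplemented group. Deficient tumours 1 and 3 were the lowest of all, and the others overlapped, giving -0.43 (95% interval -1.06 to 0.21) for deficient minus control (-0.20 without deficient tumour 3). Hspb1 differed from control by -0.50 in deficient and -0.25 in supplemented tumours. For supplemented minus deficient Bag3 stood at 0.32 and Hspb1 at 0.26, both above 0 unlike Hspb8, and at -0.23 and -0.015 with normexp.

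The mitochondrial chaperonin pair, Hspd1 (Hsp60) and its lid Hspe1 (Hsp10), and the mitochondrial Hsp70 Hspa9 had slightly higher means in supplemented tumours, by 0.27, 0.26 and 0.12 against control. Against deficient tumours the values were 0.29, 0.20 and 0.19, and all 3 turned with normexp in both comparisons. Hsf1, the transcription factor of the heat shock response, did not separate the diets. Hsf1 stood at 2.03, 1.56, 2.07, 2.35 and 2.02 in deficient tumours, 1.83, 2.02, 1.33, 1.85 and 2.28 in control tumours, and 2.07, 1.60, 1.67, 2.08 and 2.12 in supplemented tumours. The 3 groups overlapped throughout, with differences from control of 0.14 (95% interval -0.28 to 0.56) in deficient and 0.05 (95% interval -0.38 to 0.47) in supplemented tumours.

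Set beside the promoters, the 6 cytosolic members whose window held a heat shock element were all higher in supplemented than in control tumours, by 0.26 to 0.65 (median 0.50), and all higher than in deficient tumours, by 0.20 to 0.92 (median 0.46). Hspd1 and Hspe1 are counted separately among the 6, although their matches lie on the same bases of their shared window. The 11 cytosolic members with a window and no match had 7 and 8 higher, with medians of 0.09 and 0.21. With normexp only Hsph1 of the 6 stayed above 0 for supplemented minus control. Among ER members the 8 with an element had 7 higher in supplemented than in control tumours (median 0.22) and the 5 with a window and no match had 4 (median 0.07). With normexp Calr, Canx, Dnajc3, Herpud1 and Hyou1 of those 7 fell below 0, as did Sdf2l1 among those without a match. These sets were formed after the values were known, and no test of the difference between them was made.

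In the ER arm the measured sensor and transcription factors had their highest means in deficient tumours. Atf6 is a membrane-bound factor that is cut and moves to the nucleus under ER stress. Atf6 stood at 3.51, 2.64, 2.19, 2.50 and 2.76 in deficient tumours, 2.54, 1.76, 2.26, 2.07 and 2.42 in control tumours, and 2.42, 2.11, 2.34, 1.95 and 1.60 in supplemented tumours. Deficient tumour 1 was highest and supplemented tumour 5 lowest, and the groups overlapped. The difference was 0.51 (95% interval 0.00 to 1.02) for deficient minus control and -0.64 (95% interval -1.15 to -0.13) for supplemented minus deficient, with limma's adjusted p of 0.987 and 0.680. The first was 0.31 without deficient tumour 1 and 0.21 without the 3 dimmest arrays. Atf4, which is translated when Eif2ak3 is active and raises amino acid and redox genes, also had its highest mean there. Atf4 levels were 4.70, 4.96, 5.30, 5.22 and 5.20 in the deficient group, 4.85, 4.46, 4.16, 4.86 and 4.95 in the control group, and 4.53, 4.79, 4.79, 4.75 and 4.62 in the supplemented group. Deficient tumours 2, 3, 4 and 5 were above all others, while deficient tumour 1 lay among them. It differed by 0.42 (95% interval 0.04 to 0.79) for deficient minus control and -0.38 (95% interval -0.75 to -0.00) for supplemented minus deficient, with limma's unadjusted p of 0.0309 and 0.0488 and adjusted p of 0.987 and 0.708.

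Ddit3 (CHOP), a factor tied to cell death under ER stress, and Atf3, a stress-induced factor, also had their highest mean in deficient tumours. Ddit3 levels were -0.76, -1.14, -0.59, -0.13 and -1.04 in the deficient group, -0.85, -0.75, -1.31, -1.20 and -0.92 in the control group, and -0.75, -1.22, -1.13, -0.63 and -0.94 in the supplemented group. The groups overlapped and deficient tumour 4 was highest, with 0.27 (95% interval -0.16 to 0.70) for deficient minus control. Atf3 stood at 3.83, 0.93, 2.43, 0.40 and 1.57 in deficient tumours, 1.43, 2.20, 1.40, 1.70 and 1.03 in control tumours, and 2.14, -0.02, 1.88, 0.92 and 0.73 in supplemented tumours. Atf3 had the widest range of any member, 3.85, its highest level lying in deficient tumour 1 and its lowest in supplemented tumour 2, and its deficient minus control difference was 0.28 (95% interval -0.87 to 1.43). Without deficient tumour 1 that difference changed sign, to -0.22. All 3 measured transcription factors were thus higher in deficient than in control tumours and lower in supplemented than in deficient tumours (Ddit3 turning with normexp, at 0.041).

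Herpud1 and Dnajc3 feed back on the response. Herpud1 serves the degradation of ER proteins. Herpud1 levels were 2.29, 2.99, 2.50, 2.06 and 2.66 in the deficient group, 2.80, 2.43, 2.87, 3.40 and 3.11 in the control group, and 2.98, 2.83, 2.65, 3.85 and 3.73 in the supplemented group. Supplemented tumours 4 and 5 were highest and deficient tumours 1 and 4 lowest, and the groups overlapped. The difference was 0.71 (95% interval 0.15 to 1.27) for supplemented minus deficient and -0.42 (95% interval -0.98 to 0.13) for deficient minus control, with limma's adjusted p of 0.679 and 0.987. With normexp the first fell to 0.14, while the second was -0.52. Dnajc3 (p58IPK) restrains Eif2ak3. Dnajc3 stood at 1.69, 1.84, 2.68, 2.30 and 1.97 in deficient tumours, 2.04, 1.61, 0.99, 2.42 and 1.83 in control tumours, and 2.11, 2.19, 2.14, 2.70 and 2.25 in supplemented tumours. Control tumour 3 was lowest and supplemented tumour 4 highest, and the difference was 0.50 (95% interval -0.03 to 1.03) for supplemented minus control and 0.32 (95% interval -0.21 to 0.85) for deficient minus control, the first being 0.31 without control tumour 3 and turning with normexp (-0.016).

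Hspa5, the central ER chaperone and the usual readout of the response, did not separate the diets. Hspa5 stood at 4.82, 4.92, 5.73, 5.37 and 5.47 in deficient tumours, 5.47, 4.97, 5.56, 5.85 and 4.85 in control tumours, and 5.37, 5.16, 5.52, 5.87 and 5.57 in supplemented tumours. All groups overlapped, and the differences were 0.16 (95% interval -0.33 to 0.64) for supplemented minus control and -0.08 (95% interval -0.56 to 0.40) for deficient minus control. Hsp90b1 (Grp94), the ER Hsp90, lay at 0.09 and 0.05 in the same comparisons, and both signs turned under at least 1 scaling. Dnajb9 (ERdj4), a J-domain cochaperone of Hspa5 that is raised by the Ern1 and Xbp1 branch, gave the smallest p of the ER arm for supplemented minus control. Dnajb9 levels were -0.88, -0.70, -0.62, -0.50 and -0.52 in the deficient group, -0.82, -0.90, -0.93, -0.56 and -1.01 in the control group, and -0.42, -0.43, -0.50, -0.08 and -0.62 in the supplemented group. Supplemented tumours 1 to 4 were above all control tumours and supplemented tumour 5 was not. The difference was 0.43 (95% interval 0.12 to 0.75), with limma's unadjusted p of 0.0103 and adjusted p of 1.000. Its second probe gave 0.37, and the deposited values gave 0.22.

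Hyou1 (Grp170) is the nucleotide exchange factor of Hspa5. Hyou1 stood at 3.63, 3.74, 3.98, 3.89 and 3.71 in deficient tumours, 3.64, 3.66, 3.58, 4.17 and 4.29 in control tumours, and 3.93, 3.79, 4.44, 4.47 and 4.46 in supplemented tumours. Supplemented tumours 3, 4 and 5 were the highest of the 15, and the groups overlapped. The difference was 0.35 (95% interval -0.06 to 0.76) for supplemented minus control and 0.43 (95% interval 0.02 to 0.83) for supplemented minus deficient, but its second, dimmer probe gave -0.50 against control, and normexp turned both differences (-0.19 and -0.11). Sdf2l1, which extends the work of Hspa5, and Dnajb11 (ERdj3), its cochaperone, differed by 0.12 and -0.11 for supplemented minus control, both turning with normexp. The Dnajb11 probe was above background in 4 deficient, 4 control and 3 supplemented tumours.

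**Figure D4:**
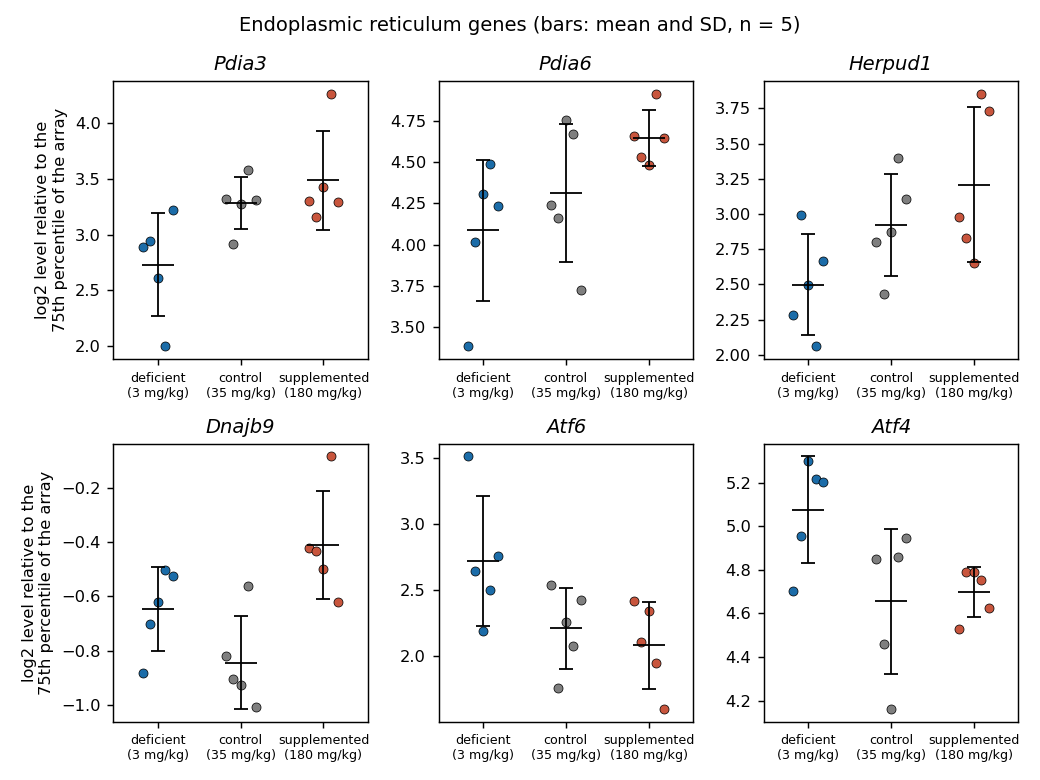
Log2 level, relative to each array's 75th percentile, for 6 ER genes, 1 point per tumour, diets from 3 to 180 mg zinc per kg, bars showing mean and SD (n = 5). Pdia3, Pdia6 and Herpud1 have their lowest mean in deficient tumours, whereas Atf6 and Atf4 have their highest mean there, and the groups overlap in each panel.

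The lectins and disulfide isomerases that fold glycoproteins held the largest difference of the ER arm, that of Pdia3 for supplemented minus deficient. Pdia3 (ERp57) joins disulfides in clients of calnexin and calreticulin. Pdia3 stood at 2.89, 2.94, 2.62, 2.00 and 3.22 in deficient tumours, 3.32, 2.92, 3.28, 3.58 and 3.31 in control tumours, and 3.30, 3.16, 3.43, 4.26 and 3.29 in supplemented tumours. Supplemented tumour 4 was the highest and deficient tumour 4 the lowest of the 15, and the others overlapped. The supplemented mean was 1.69-fold the deficient mean, a log2 difference of 0.76 (95% interval 0.24 to 1.28), and the deficient mean lay -0.55 (95% interval -1.07 to -0.03) from the control mean, with limma's adjusted p of 0.661 and 0.987. Leaving out single tumours moved the first over 0.56 to 0.88 and the second over -0.67 to -0.37. With normexp the first fell to 0.22, while the second was -0.69. Without deficient tumour 4, on a dim array, the second was -0.37.

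Pdia6 (P5), another isomerase, also had its lowest mean in deficient tumours. Pdia6 levels were 3.38, 4.01, 4.31, 4.49 and 4.23 in the deficient group, 4.24, 4.16, 4.76, 4.67 and 3.72 in the control group, and 4.66, 4.53, 4.48, 4.92 and 4.65 in the supplemented group. Deficient tumour 1 and control tumour 5 were lowest and supplemented tumour 4 highest, with a difference of 0.56 (95% interval 0.08 to 1.04) for supplemented minus deficient and 0.34 (95% interval -0.15 to 0.82) for supplemented minus control, the second being 0.19 without control tumour 5 and turning with normexp (-0.31). With normexp the first fell to 0.047. Pdia4 (ERp72) stood near 0, at -0.09 and -0.03. The lectins Calr and Canx were 0.22 and 0.22 for supplemented minus control, turning with normexp (-0.41 and -0.43), and the 2 Canx probes disagreed in sign (-0.03 to 0.22).

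Other genes of protein folding had medians slightly above 0 for supplemented tumours against both diets. Of 52 further cytosolic chaperone, cochaperone and chaperonin genes 42 were measured, and 33 of them were higher in supplemented than in deficient tumours (median 0.17), 26 than in control tumours (median 0.08). Limma marked 4 of the 42 at an unadjusted p under 0.05 for supplemented minus deficient, all higher, beside 7.05% of all probes (3.31% higher), and 0 for supplemented minus control, beside 1.97%. The J-domain gene Dnaja4 differed by 0.57 for supplemented minus deficient, and the chaperonin subunits Cct7 and Cct8 by 0.51 and 0.39. For Cct8, 1 of 2 such genes among the 42, those groups did not overlap, as for 0.857% of all probes, and normexp gave -0.30. For deficient minus control, Cryab, a small heat shock protein, differed by -0.72, Dnaja3 of the mitochondria by -0.67 (0.049 with normexp, -0.054 without the 3 dimmest arrays) and Dnajc7 by 0.39. These were the 3 of the 42 that limma marked at an unadjusted p under 0.05 there, beside 3.91% of all probes. Hspb6, a small heat shock protein, was -0.39 for supplemented minus control (0.0083 with normexp).

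Of 55 further ER genes for folding, export and degradation 38 were measured, and in supplemented tumours 24 were higher against control (median 0.08) and 24 against deficient tumours (median 0.10). Sec63, a J-domain protein of the ER import channel, was the only 1 of the 38 marked in these comparisons. That is 1 gene in each, beside 1.97% of all probes against control and 7.05% against deficient. Sec63 differed by 0.45 against control and 0.49 against deficient (unadjusted p 0.0458 and 0.0316 in limma), and by 0.39 and 0.25 without the 3 dimmest arrays. Ssr1, a subunit of the translocon-associated complex, differed by 0.35 for supplemented minus deficient, and those groups did not overlap, which held for 1 of the 38 genes and 0.857% of all probes. P4hb, the main disulfide isomerase, was 0.56 in that comparison (-0.16 with normexp). Chac1 and Ppp1r15a, both downstream of Atf4, went apart in deficient minus control at 0.66 and -0.42, neither with an unadjusted p under 0.05 in limma. Without the 3 dimmest arrays they stood at 0.19 and -0.15, without deficient tumour 4 Ppp1r15a stood at -0.25, and the Chac1 probe was above background on 9 arrays. Edem2 and Edem3, which mark misfolded glycoproteins for removal, were -0.39 (Edem2, deficient minus control) and -0.41 (Edem3, supplemented minus control, 0.20 with normexp), and at -0.20 without deficient tumour 1 and -0.21 without control tumour 5.

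Tumours of the same diet differed widely. Supplemented tumour 4 held the highest level of the 15 tumours for 9 of 21 cytosolic and 9 of 17 ER members, and the median deviation of the members from their own means was 0.48 and 0.51 there. In the other supplemented tumours it ran from 0.03 to 0.15 in the cytosolic arm and from -0.09 to 0.15 in the ER arm. Deficient tumours ran from -0.20 to 0.07 (cytosolic) and from -0.25 to 0.03 (ER), and control tumours from -0.28 to 0.09 and from -0.30 to 0.26, the lowest being control tumour 2 in both arms. The median deviation of all tested probes in supplemented tumour 4 was 0.03.

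Marker lists of cell types and of the cell cycle moved between diets as well. All 10 milk secretory markers, such as the caseins, were measured and all had higher means in supplemented than in control tumours, the mean level of the list running from 0.01 to 2.64 in supplemented tumours, with tumour 4 highest, and from -0.95 to 2.36 in control tumours. In deficient tumours it ran from 0.51 to 3.05. The median differences of the milk list were 1.03 for deficient minus control (9 of 10 higher), 0.55 for supplemented minus control and -0.35 for supplemented minus deficient (4 of 10 higher). Of 10 cell cycle genes measured none had a higher mean in supplemented than in control tumours, although tumour 4 was the highest supplemented tumour at 1.19, and none was higher in deficient than in control tumours, the medians being -0.67 and -0.44. Of 8 erythrocyte markers 4 were measured, and their mean level ran from 0.85 to 3.02 in deficient, from -1.39 to 1.35 in control and from -1.16 to -0.19 in supplemented tumours. All 4 were lower in supplemented than in deficient tumours (median -2.01), each with an unadjusted p under 0.05 in limma, beside 3.74% of all probes, and higher in deficient than in control tumours (median 1.33). The part of these lists in the chaperone levels was not tested.

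Within slides the cytosolic arm kept its direction. Over the 4 slides the median supplemented minus control difference ran from 0.06 to 0.40 and the median supplemented minus deficient difference from 0.08 to 0.55. In the ER arm they ran from -0.15 to 0.59 and from 0.07 to 0.37. Each slide held 1 or 2 tumours per diet. For Hsph1 against control, where the groups overlapped, the supplemented mean was higher on 4 of 4 slides. It was also higher on 4 of 4 slides for Hspa1a, Hspa4l, Hspd1, Hspe1, Herpud1, Dnajc3, Hyou1, Dnajb9 and Pdia6, with overlapping groups. For Hsp90ab1 and Hspb8 it was higher on 0 of 4. The count thus did not set Hsph1 apart, and its share over all probes was not computed. The slide means use the same tumours as the group means and are not separate evidence. For Hspa8 in both comparisons and for Hsph1 against deficient tumours, full separation of the groups fixed a higher mean on each slide in advance. The deficient minus control median ran from -0.14 to 0.21 in the cytosolic arm.

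Some pairs of members varied together among tumours of the same diet. With diet means removed, the median Pearson correlation across the 15 tumours was 0.10 over 210 cytosolic pairs, 0.21 over 136 ER pairs and 0.15 over 357 pairs between the arms, beside 0.01 over all pairs of measured genes. Above 0.5 lay 12.9%, 20.6% and 17.4% of those member pairs, beside 8.55% of all pairs. The 5th and 95th percentiles over all pairs were -0.55 and 0.58. These correlations share arrays and brightness and are given as a description, and the pairs named next were picked as the most extreme. The closest pair was Chordc1 and Dnaja1 (0.93), then Hyou1 and Sdf2l1 (0.91), and Chordc1 also followed the ER genes Pdia6 (0.90) and Hspa5 (0.87). Hspd1 and Hspe1, which share a divergent promoter, stood at 0.83, and Atf4 and Dnajc3 at 0.81. Hspb8 ran against Pdia6 (-0.81) and had the most negative median correlation with its own arm, -0.26.

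**Figure D5:**
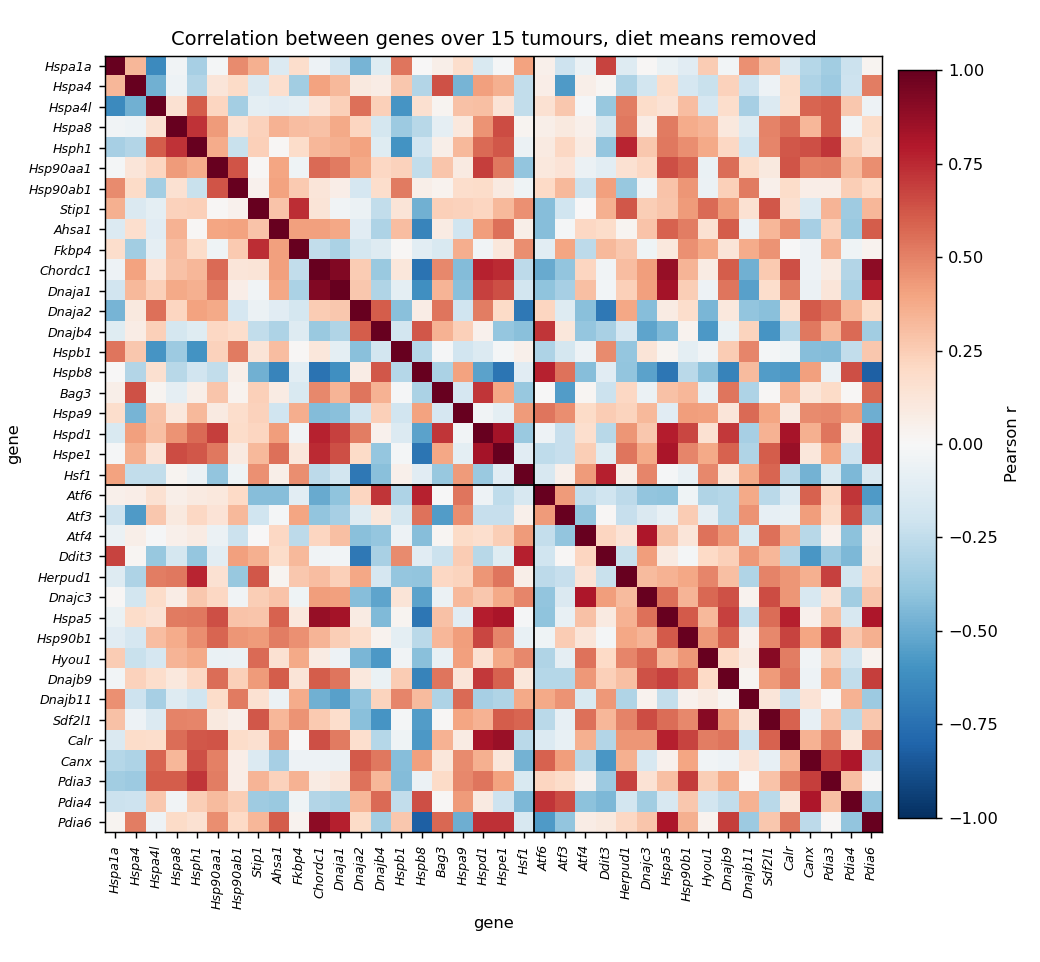
Pearson correlation between each pair of the 38 genes over the 15 tumours after removal of diet means, red positive and blue negative, cytosolic arm first and ER arm after the black lines. A red block joins Chordc1, Dnaja1, Hspd1 and Hspe1 with Hspa5, Calr and Pdia6, and the row of Hspb8 is mostly blue.

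A family of 7 pairs had been listed. It held partners in folding, the unfolded protein response genes Ddit3 and Trib3, and 1 ER with 1 cytosolic gene (Hspa5 and Dnaja1). Of these pairs 5 could be computed over the 15 tumours without removing diet means. Hspa8 and its J-domain partner Dnaja1 gave r = 0.729 (permutation p 0.00224, adjusted 0.0056) and rho = 0.796 (permutation p 0.00065, adjusted 0.00325), with 0.619 after the 2 tumours farthest in Hspa8 were left out and 0.738 within slides. With diet means removed the correlation was 0.377. Hspa5 and Dnaja1 gave r = 0.744 (permutation p 0.00179, adjusted 0.0056) and rho = 0.639 (permutation p 0.0126, adjusted 0.0315), with 0.56 without the 2 farthest tumours, 0.797 within slides and 0.835 with diet means removed.

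Hspa5 and Hsp90b1 gave r = 0.602 (permutation p 0.0162, adjusted 0.027) and rho = 0.604 (permutation p 0.0193, adjusted 0.0322), with 0.572 without the 2 farthest tumours 0.587 within slides and 0.611 with diet means removed, but -0.0051 in the authors' deposited values. Hsp90aa1 and Hsph1 gave r = 0.577 (permutation p 0.0237, adjusted 0.0297) and rho = 0.55 (permutation p 0.0371, adjusted 0.0463), with 0.536 without the 2 farthest tumours 0.823 within slides and 0.374 with diet means removed, but 0.0504 in the deposited values. The isomerases Pdia4 and Pdia6 gave r = -0.383 (permutation p 0.159) and rho = -0.139 (permutation p 0.62). It was 0.124 without the 2 farthest tumours, -0.21 within slides and -0.391 with diet means removed. Without deficient tumour 1 alone r was 0.134, while it stayed below 0 without any other single tumour, so the sign rested on deficient tumour 1.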

How the data were processed

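RNA from 15 tumours was measured on single-colour Agilent rat arrays. The spot intensities were background-subtracted and detrended in Feature Extraction before deposit, per the file headers, which give version 11.5.1.1, while 15.5 is named in the submitters' processing notes. The authors also deposited a table of log2 values for 30002 probes, with array medians of 7.09 to 7.10 and correlations of 0.984 to 1.000 with the log2 median spot signal. How it was normalized is not stated in the sources used here, and it was tried as an alternative scale.

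The 75th percentile of each array over non-control spots was subtracted on the log2 scale, replicate spots were averaged, and spots with an outlier mark were left missing (40 values). Probes well above background on 5 or more arrays were tested, 21015 of 41012. Accessions named genes through RefSeq (GRCr8), with 17502 probes (42.7%) matched to 1 gene each, and the tested probe with the highest mean level stands for its gene. Limma 3.58.1 (R 4.3.3) fitted the 3 diets in 1 model (12 residual degrees of freedom, two-sided tests, Benjamini-Hochberg over tested probes, threshold 0.05). Every tumour's value is given for the 4 members of each arm with the smallest p in each comparison, the 3 of widest range, and Hsf1, Hspa8, Hsp90aa1, Hspa5, Atf4 and Ddit3, and the 3 genes with the smallest p per comparison are named from each further list. Pair correlations had permutation tests (100000 resamples, two-sided, adjusted over 5 pairs). Members and lists were chosen with earlier results of these data known. Not every marker list is reported here.

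Alternatives changed background correction, normalization, filter, blocks, weights and the tumours included. The files hold no mean spot signal, so normexp took the median signal and background (offset 50). The number of arrays limits precision. The fit was tested on simulated data. The label "negative control" was read as adequate chow. A free-text field names mammary gland at day 21, and the characteristics, tumours at 180 days, were followed.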

Additional observations from a re-analysis of the deposited data

Results flagged for a closer look

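In 3 of 114 groups of 5 tumours (38 members in 3 diets) 1 tumour stood apart from the other 4 by more than Dixon's 95% critical value, 0.71 of the group's range. Chance gives about 1 in 20 such groups. Hspa9, the mitochondrial Hsp70, stood at 0.963 in deficient tumour 1, beside 0.489 to 0.574 in the other deficient tumours, a gap of 0.821 of the range. Dnajc3 stood at 2.70 in supplemented tumour 4, beside 2.11 to 2.25 in the other supplemented tumours, a gap of 0.754 of the range. Pdia3 stood at 4.26 in the same tumour, beside 3.16 to 3.43 in the others, a gap of 0.753 of the range. Deficient tumour 1 was on the dimmest array, with a 75th percentile of 50.7, and supplemented tumour 4 was not among the 3 dimmest, with 114.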

How the results depend on the processing

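The count of 0 probes called held under the alternatives run, apart from 4 with 1 called probe each. These were the fit of deficient and control tumours alone (1), array weights for supplemented minus deficient (1) and for the F test (1), and leaving out supplemented tumour 1, where the single-tumour omissions for supplemented minus deficient ranged over 0 to 1. None of the pairwise calls was a member. Of the 3 pairwise calls 1 was Capns2, named after its value was seen, and the others have no symbol here.

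Normexp gave list medians of -0.23 (cytosolic) and -0.41 (ER) for supplemented minus control and of -0.17 and -0.18 for supplemented minus deficient. On that scale probes with a mean level above 2 deviated by -1.37 in supplemented tumour 4 and by -0.43 in supplemented tumour 5. In control tumours they deviated by -0.38 to 0.50. For supplemented minus control it gave -0.024 for Chordc1, -0.077 for Dnaja1, -0.22 for Hspa8, -0.016 for Dnajc3, -0.19 for Hyou1 (-0.074 as a mean over its probes with the processed signal), -0.31 for Pdia6, -0.35 for Cct8, 0.0083 for Hspb6 and 0.20 for Edem3. It gave -0.30 for Cct8 and -0.16 for P4hb for supplemented minus deficient, and 0.049 for Dnaja3 for deficient minus control. Other settings that moved a median by over 1.5 times kept its sign. For supplemented minus control in the cytosolic arm they gave 0.13 (normexp with quantile normalization), 0.14 (deposited values), 0.12 (probes above background on all arrays), 0.11 (array weights) and 0.13 (without the 3 dimmest arrays). In the ER arm they gave 0.05 (array weights), 0.07 (without the 3 dimmest arrays), 0.10 (mean over probes), 0.29 (without control tumour 4) and 0.26 (without supplemented tumour 2). Leaving out deficient tumour 1 gave 0.10 for supplemented minus deficient in the ER arm. Single-tumour omissions kept the deficient minus control medians between -0.07 and 0.08 (cytosolic) and between -0.04 and 0.13 (ER).

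For Hsp90aa1 and Hsph1 r was -0.511 with normexp, 0.51 with the percentile over probes detected on all arrays, 0.0504 in deposited values and 0.455 to 0.694 with 1 tumour left out. For Hspa5 and Hsp90b1 it was 0.467 with quantile normalization, 0.504 with the percentile over probes detected on all arrays, -0.0051 in deposited values and 0.494 to 0.668 with 1 tumour left out. For Pdia4 and Pdia6 it was 0.486 with normexp, -0.528 with the percentile over probes detected on all arrays and -0.558 to 0.134 with 1 tumour left out. The cause of these changes was not tested. Tumours with the same number did not deviate together (correlations of -0.281 to 0.224 over 15 pairs), and with the replicate number as a block limma called 0 probes and the list medians stayed at 0.21 and 0.16 for supplemented minus control. Dim probes such as Hspa4l and Dnajb11 are measured least well.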
